A study of Mus musculus with 2 samples.

Results

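The Fc gamma receptors of the mouse, their ITAM adaptors and the molecules next to them were followed through both RNA sequencing libraries of the series as 8 genes. Fcgr1, Fcgr3 and Fcgr4 encode the activating receptors for IgG and Fcgr2b the inhibitory one. Fcer1g and Tyrobp encode adaptors, Syk the kinase that binds them, and Fcgrt the heavy chain of the neonatal Fc receptor. The genes were chosen by name, as the lines of the deposited tables that carry 1 of these 8 symbols, and they are 8 of the 22886 genes of the tables. Each gene had a single line in both tables, and all 8 passed the filter on low values, a mean of 1 RPKM or more (RPKM, reads per kilobase of transcript scaled to the size of the library). Of all 22886 genes, 10982 passed this filter.

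Both libraries were made from polyA RNA of sorted cells, called aerobic tumor cells in the labels, of subcutaneous LLC tumors in wild type C57BL/6 mice. LLC is Lewis lung carcinoma, a mouse lung tumor line that is grown under the skin. The mice of 1 library had received vehicle (Veh) and those of the other clodronate (Clod), a drug that is given in liposomes to remove phagocytes. The labels give no dose, time, age, number of mice or gate of the sort, and a growth protocol in them names EML cells, a blood progenitor line, which goes against the other labels. With 1 library per condition there was no replicate, so no p-value was computed, and each difference compares these libraries and not the treatments.

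Although the cells carry the name of tumor cells, macrophage transcripts were abundant in both libraries, and all 10 macrophage markers examined passed the filter. Lyz2, the lysozyme of myeloid cells, was at 10534 RPKM in the vehicle library and 11189 RPKM in the clodronate library. Csf1r, the receptor that keeps macrophages alive, was at 446 and 465 RPKM, and Adgre1, which encodes F4/80 and is listed under the older symbol Emr1, at 357 and 261 RPKM. Of the 10 markers, 6 were higher and 4 lower in the clodronate library, where 51.6% of all genes kept were higher. C1qc was lower, at 3984 and 2043 RPKM, whereas C1qa was at 1185 and 1563 RPKM and Cd68 at 1183 and 1536 RPKM. Of 5 epithelial markers, 3 passed the filter at low values, Cdh1 at 6.14 and 6.44 RPKM, Krt8 at 3.67 and 1.33 RPKM and Krt18 at 2.97 and 3.19 RPKM, and Epcam and Krt19 were listed at 0 in both. No marker chosen for the LLC line itself was examined, so these values do not measure the share of tumor cells. In RNA from a mixture of cells, fewer cells of a type and less RNA per cell cannot be told apart.

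Fc gamma receptors bind the constant part of IgG and let phagocytes take up or kill what antibodies have coated. The activating receptors carry no signal motif of their own and sit in the membrane with Fcer1g, the common gamma chain, whose ITAM is phosphorylated by Src family kinases and then recruits Syk. Tyrobp, also called DAP12, is a related ITAM adaptor that serves other myeloid receptors such as Trem2. Fcgr2b carries an ITIM, which recruits the phosphatase SHIP1 and opposes this signal. Fcgrt binds IgG in acidic endosomes, together with B2m, and protects it from degradation.

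Fcgr2b and Fcgr3 arose by duplication, and part of their coding sequence is identical, so reads from that part cannot be assigned to either gene by sequence. The longest identical run is 129 bases long and is shown because it limits how well the 2 receptors were separated. It covers bases 278 to 406 of the coding sequence of Fcgr2b, 1023 bases in all, and bases 263 to 391 of that of Fcgr3, 804 bases in all.
Fcgr2b and Fcgr3 shared run: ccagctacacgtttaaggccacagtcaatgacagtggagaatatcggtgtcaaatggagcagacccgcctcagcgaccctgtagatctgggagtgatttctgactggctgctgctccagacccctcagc
Of the windows of 50 bases in the Fcgr3 transcript, 166 of 1298 (12.8%) were also found in Fcgr2b. The same 166 windows were 11.7% of the 1413 windows of the shorter Fcgr2b transcript. How reads of these windows were divided is not given in the sources used here, and the values of Fcgr2b and Fcgr3 are uncertain to that extent. No window of the transcripts of Fcgr1, Fcgr4, Fcer1g, Tyrobp, Syk and Fcgrt was shared with another gene.

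The promoters of the 3 activating receptors are shown because their RNA differed in direction between the libraries while all 3 hold the same short motif. A RefSeq promoter on GRCm38.p6, from 250 bases before to 50 bases after the start site, was found for 7 of the 8 genes, with 9 start sites, and Tyrobp had none in the table used. Capitals mark matches to GAGGAAG on either strand, the core letters bound by PU.1, the myeloid transcription factor encoded by Spi1, and to TTCNNNGAA, the GAS element known from genes induced by interferon-gamma. The sequences run 5′ to 3′ along the strand of the gene.
Fcgr1, chr3:96293920-96294219, minus strand: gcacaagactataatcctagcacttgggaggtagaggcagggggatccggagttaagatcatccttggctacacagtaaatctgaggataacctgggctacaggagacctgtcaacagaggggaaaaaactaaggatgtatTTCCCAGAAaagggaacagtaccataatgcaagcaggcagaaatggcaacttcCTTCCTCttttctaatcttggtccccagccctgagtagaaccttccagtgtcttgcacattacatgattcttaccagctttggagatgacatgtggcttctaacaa
Fcgr3, chr1:171059345-171059644, minus strand: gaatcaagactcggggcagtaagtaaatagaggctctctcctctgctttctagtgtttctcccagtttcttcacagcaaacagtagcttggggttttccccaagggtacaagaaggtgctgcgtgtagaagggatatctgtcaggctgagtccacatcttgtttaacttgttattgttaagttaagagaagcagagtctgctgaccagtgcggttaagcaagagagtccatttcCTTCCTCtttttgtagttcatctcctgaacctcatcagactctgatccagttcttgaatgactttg
Fcgr4, chr1:171018676-171018975, plus strand: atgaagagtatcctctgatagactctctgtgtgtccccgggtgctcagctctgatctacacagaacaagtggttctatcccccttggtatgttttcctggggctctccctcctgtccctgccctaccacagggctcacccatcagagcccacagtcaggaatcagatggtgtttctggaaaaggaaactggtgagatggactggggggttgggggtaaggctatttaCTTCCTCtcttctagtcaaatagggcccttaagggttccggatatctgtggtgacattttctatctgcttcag
The PU.1 letters lay on the strand opposite to the gene, as CTTCCTC, and began at position -56 from the start site in Fcgr1, -16 in Fcgr3 and -23 in Fcgr4. A second Fcgr3 start site in the table moved the match to -7. The GAS letters were found in Fcgr1 alone among the 7 genes with a promoter, at -109, and did not overlap the PU.1 match. Among all 32851 promoters of the same length, 13.6% held the PU.1 letters and 8.3% the GAS letters. Neither set of letters was in the windows of Fcgr2b, Fcer1g, Syk or Fcgrt. These matches describe letters in a window and are not measurements of binding.

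The tables hold no read counts, but low values fell on regular steps, from which the depth was estimated after the data had been seen. The value of 1 read was 0.073 RPKM × kb in the vehicle library and 0.0895 in the clodronate library, which puts the vehicle library at 1.23 times the depth of the clodronate library. With these units, 81.7% of 460 low loci of the vehicle library and 81.6% of 837 of the clodronate library lay within 0.15 of a whole read, where 30.0% would do so if the values were spread evenly. The 95% intervals given for levels and folds rest on the estimated reads and cover counting error only, not the spread between animals or libraries.

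**Figure D1:**
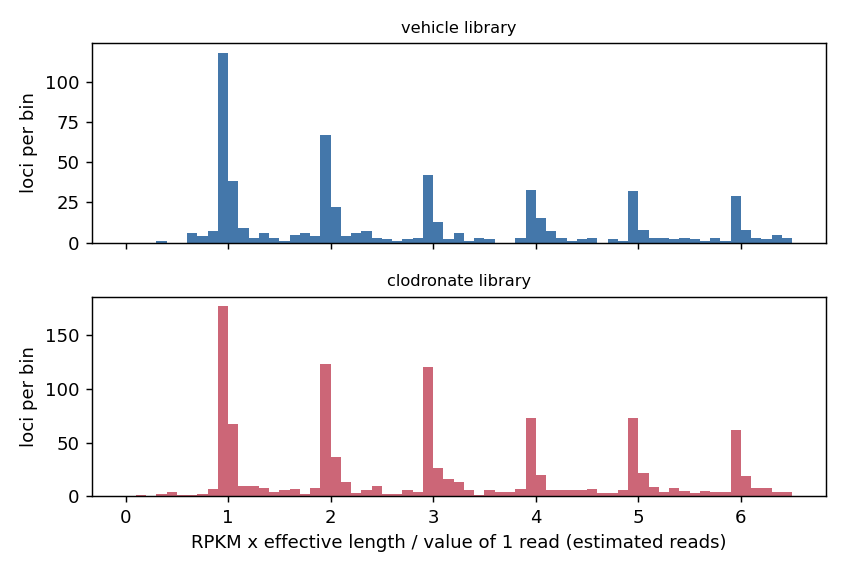
Estimated reads of low loci in the vehicle library (top) and the clodronate library (bottom), as RPKM times effective length divided by the value of 1 read. Bars count loci in bins of 0.1 read and stand in peaks at whole reads in both libraries, with units of 0.073 and 0.0895 RPKM × kb.

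The levels of the 8 genes ranged from 22.5 to 2689.8 RPKM in the vehicle library, and their order was the same in both libraries. From the highest to the lowest it was Fcer1g, Tyrobp, Fcgr2b, Fcgr3, Fcgrt, Syk, Fcgr4 and Fcgr1. Neighbours in this order were separated by more than their counting intervals in both libraries, while the spread between replicates is not known. Fcer1g ranked 27th of the 10982 genes kept in either library, and Tyrobp 37th in the vehicle and 48th in the clodronate library. Fcgr1, the lowest, ranked 3248th and 1909th.

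**Figure D2:**
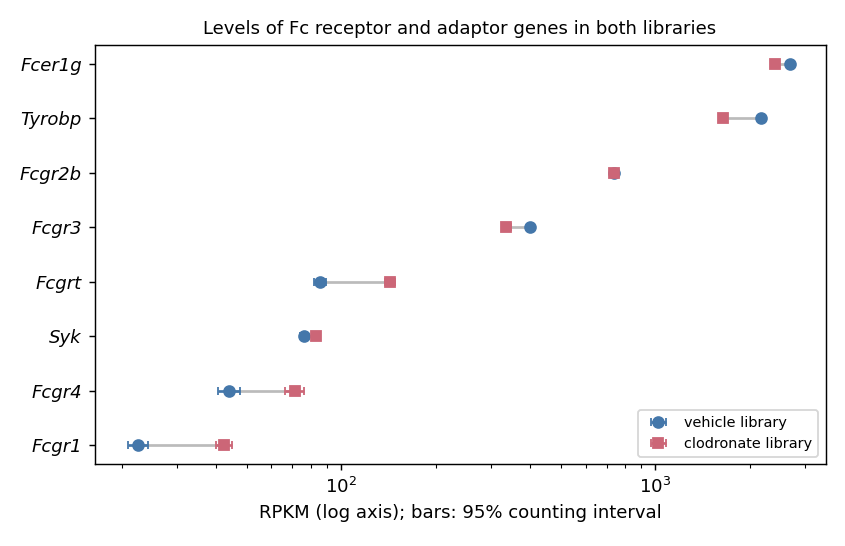
RPKM of the 8 genes in the vehicle library (blue circles) and the clodronate library (red squares) on a log axis, with bars for the 95% counting interval. The order of the genes was the same in both libraries, and the widest gaps between libraries were those of Fcgr1, Fcgr4 and Fcgrt, each higher in the clodronate library.

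None of the 8 genes differed 3-fold or 2-fold between the libraries. On the log2(RPKM + 1) scale, 2.86% of all genes kept were 3-fold or more above their vehicle value in the clodronate library and 2.32% as far below it. The shares past 2-fold were 6.95% above and 6.77% below. Of the 8 genes, 5 were higher in the clodronate library and 3 lower, the 5 including Fcgr2b at a log2 ratio of 0.0024. Of all genes kept, 51.6% were higher and 48.4% lower. Their median log2 ratio was 0.06, beside 0.02 for all genes kept. Fcgr1, Fcgr4 and Fcgrt lay between the 86.5th and the 91.0th percentile of all genes kept. The other 5 were spread lower, with Fcgr2b at 48.6 and Syk at 57.7, and Tyrobp, Fcgr3 and Fcer1g between 23.9 and 37.4. Corrected for GC content and length, as described below, the upper 3 stayed between 85.9 and 91.1. Tyrobp was then at 31.0, Fcgr3 at 39.4, Syk at 49.6, Fcer1g at 53.9 and Fcgr2b at 57.4, so the order of these 5 was not kept.

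**Figure D3:**
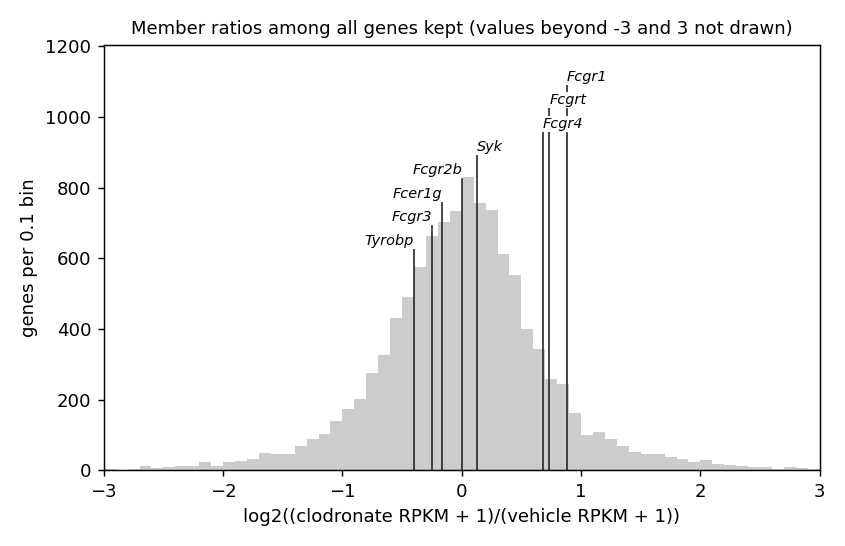
Histogram of the log2 ratio of clodronate to vehicle RPKM, each with a pseudocount of 1, for the 10982 genes kept, with vertical lines at the 8 genes. Fcgr4, Fcgrt and Fcgr1 lie to the right, at 0.68, 0.74 and 0.88, and Tyrobp is the lowest of the 8, at -0.40.

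Among the activating receptors, Fcgr1 and Fcgr4 were higher and Fcgr3 was lower in the clodronate library. Fcgr1 encodes the high-affinity receptor CD64, which binds monomeric IgG and is induced by interferon-gamma (mm9 chr3:96086832-96097892). Fcgr1 was at 22.5 RPKM in the vehicle library (about 737 reads) and at 42.3 RPKM in the clodronate library (about 1129 reads), a 1.88-fold difference with a counting interval of 1.71 to 2.06. This was the largest log2 ratio of the 8 genes, 0.88. Fcgr4, which encodes CD16-2, a receptor for IgG2a and IgG2b (mm9 chr1:172949057-172959892), was at 44.0 RPKM (about 637 reads) and 71.2 RPKM (about 840 reads). The clodronate value was 1.62-fold higher, with an interval of 1.46 to 1.795. Both were thus higher in the clodronate library by more than counting error.

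Fcgr3 encodes CD16, a low-affinity receptor for immune complexes (mm9 chr1:172981300-172989534), and was the most abundant activating receptor in both libraries. Fcgr3 was at 399.8 RPKM in the vehicle library (about 6282 reads) and at 336 RPKM in the clodronate library (about 4307 reads), a ratio of 0.841 with an interval of 0.808 to 0.874. The direction was opposite to that of Fcgr1 and Fcgr4. The ratio of Fcgr1 and Fcgr4 together to Fcgr3 was 0.166 in the vehicle library and 0.338 in the clodronate library, a log2 difference of 1.02 (counting SE 0.06). A ratio within a library is not changed by how the libraries were scaled.

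Fcgr2b, which encodes CD32B, the only inhibitory Fc gamma receptor (mm9 chr1:172890689-172906202), was the most abundant of the 4 IgG receptors, and its level was nearly the same in both libraries. Fcgr2b was at 738 RPKM (about 23271 reads) and 739 RPKM (about 19012 reads), a ratio of 1.002 with an interval of 0.983 to 1.02. These reads assume 2503 bases, the median length of its 2 transcripts. The longer transcript alone, 3544 bases, would give about 33790 and 27606 reads, and the shorter, 1462 bases, about 12752 and 10418. The intervals that use Fcgr2b depend on this choice. It made up 61.3% of the summed RPKM of the 4 receptors in the vehicle library and 62.2% in the clodronate library. The sum itself was 1204 and 1188 RPKM. The share of Fcgr3 was 33.2% and 28.3%, that of Fcgr4 3.66% and 5.99%, and that of Fcgr1 1.87% and 3.56%. The activating receptors together stood at 0.632 of Fcgr2b in the vehicle and 0.608 in the clodronate library, a log2 difference of -0.06 with an interval of -0.11 to 0.00088. The make-up of the activating receptors thus differed between the libraries by more than counting error. The interval for their sum relative to Fcgr2b just included 0 at the assumed length of Fcgr2b. Because Fcgr2b and Fcgr3 share sequence, these shares depend on how shared reads were divided.

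**Figure D4:**
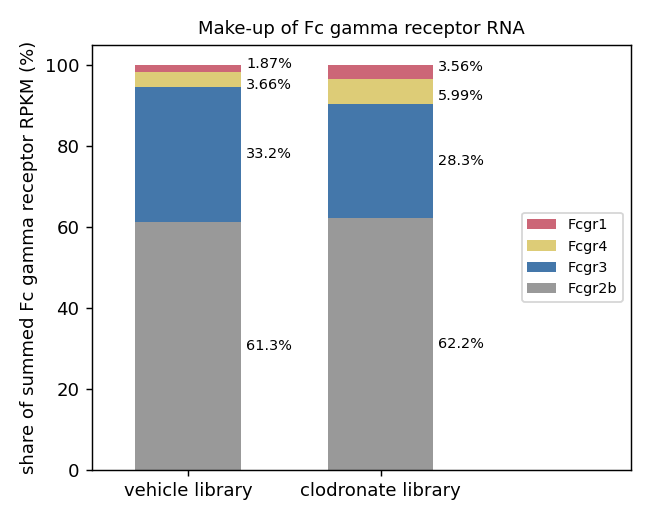
Share of each IgG receptor in the summed RPKM of Fcgr1, Fcgr2b, Fcgr3 and Fcgr4 in each library. Fcgr2b takes 61.3% and 62.2%, whereas the share of Fcgr3 is 33.2% and 28.3%, and those of Fcgr4 and Fcgr1 are larger in the clodronate library.

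The adaptors were the most abundant of these transcripts, and both were lower in the clodronate library as deposited. Fcer1g (mm9 chr1:173159703-173164480) was at 2689.8 RPKM (about 17465 reads) and 2397 RPKM (about 12693 reads), a ratio of 0.891 with an interval of 0.871 to 0.912. Tyrobp (mm9 chr7:31198807-31202598) was at 2174 RPKM (about 10840 reads) and 1644 RPKM (about 6686 reads), a ratio of 0.756 with an interval of 0.733 to 0.780. The ratio of Fcer1g to Tyrobp was 1.24 in the vehicle and 1.46 in the clodronate library, a log2 difference of 0.24 (counting SE 0.03). Both adaptors together stood at 4.04 times the summed IgG receptors in the vehicle library and 3.40 times in the clodronate library, a log2 difference of -0.25 (counting SE 0.02).

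Transcript length and base composition moved with these values. The Fcer1g and Tyrobp transcripts are 674 and 564 bases long and lie in the shortest of 10 length bins, whose median log2 ratio was -0.19. Across 10 bins of GC content, the median ran from -0.24 in the lowest to 0.29 in the highest. After subtraction of the bin medians for GC content and then length, the log2 ratio of Fcer1g went from -0.17 to 0.05, so its direction was not kept. Tyrobp went from -0.40 to -0.25 and remained lower. The corrected values of Fcgr1, Fcgr4 and Fcgr3 were 0.85, 0.86 and -0.13, and the adaptor to receptor difference became -0.16. The deposited values were scaled to a length shortened by about 200 bases, which raises short transcripts most. Per full length, the adaptors stood at 3.06 times the IgG receptors in the vehicle library and 2.58 times in the clodronate library.

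Syk (mm9 chr13:52678806-52744161) differed little between the libraries. It was at 75.9 RPKM (about 5245 reads) and 82.9 RPKM (about 4673 reads), a 1.09-fold difference with an interval of 1.05 to 1.14, and its log2 ratio of 0.13 became -0.0042 once GC content and length were corrected for. The direction of Syk was thus not kept.

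Fcgrt (mm9 chr7:52348363-52359192) was higher in the clodronate library while its partner was lower. Fcgrt was at 85.6 RPKM (about 1840 reads) and 143 RPKM (about 2511 reads), a 1.67-fold difference with an interval of 1.57 to 1.78, and its log2 ratio of 0.74 was 0.62 after the correction. B2m, the light chain that Fcgrt shares with MHC class I, was at 10339 and 8188 RPKM as deposited, before any correction. B2m was thus at 121 times Fcgrt in the vehicle library and 57.2 times in the clodronate library.

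The genes with the closest pair of levels were found by distance on the log2(RPKM + 1) scale over the 2 libraries, which is a likeness of 2 values only. Arl1 lay closest to Fcgr1, at 22.9 and 42.0 RPKM, and G6pdx to Fcgr4, at 45.6 and 70.6 RPKM. Ccl3 was closest to Fcgr3, at 398 and 331 RPKM, and Fth1 to Fcer1g, at 2396 and 2142 RPKM.

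The rest of the pathway was described with 10 lists of 115 genes in all, of which 88 passed the filter. Of these 88, 45 were higher and 43 lower in the clodronate library, 0 passed 3-fold upwards and 2 passed it downwards, and the median log2 ratio was 0.0087. As shares of 88 these counts lie near the background of all genes given above. The plot of log2 ratios by role gives each list, and differences between lists were not tested.

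**Figure D5:**
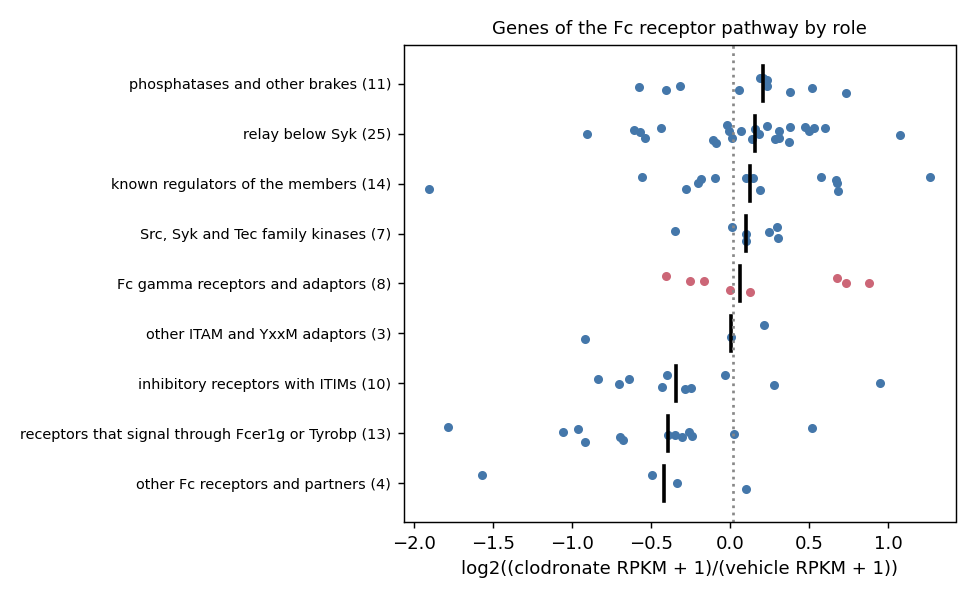
Log2 ratio of clodronate to vehicle RPKM, each with a pseudocount of 1, for every gene kept in the lists with at least 3 such genes (numbers in brackets), with black bars for list medians and a dotted line for the median of all genes, 0.02. Receptors that signal through Fcer1g or Tyrobp and receptors with ITIMs have medians of -0.39 and -0.34, and the IgG receptors and adaptors are drawn in red.

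Of 18 other receptors that use Fcer1g or Tyrobp, 13 passed the filter, and 11 of the 13 were lower in the clodronate library. Their median log2 ratio was -0.39, or -0.35 when corrected for GC content and length. Of the C-type lectins in the list, named after their values were seen, Clec4e (Mincle) was at 93.1 and 44.3 RPKM, Clec4d at 421 and 223 RPKM, Clec4n (Dectin-2) at 262 and 134 RPKM and Clec5a at 44.6 and 33.7 RPKM. Clec7a (Dectin-1), which carries a hemITAM of its own and also signals through Syk, was at 174 and 92.2 RPKM. Of the Tyrobp partners, Trem2, a lipid receptor, was at 444 and 349 RPKM and Trem1, an amplifier of inflammation, at 73.7 and 45.2 RPKM. Trem3 was at 9.82 RPKM (about 107 reads) and 2.14 RPKM (about 19 reads) and was 1 of the 2 genes of these lists that passed 3-fold downwards, Ifng being the other. Pilrb2 and Cd300ld were the 2 exceptions, at 5.88 and 8.87 RPKM and at 127 and 129 RPKM.

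Receptors with ITIMs, which oppose ITAM signals as Fcgr2b does, were lower in 8 of 10 cases, with a median of -0.34, or -0.16 after the correction. Lilrb4 was at 1002 and 824 RPKM, Cd33 at 172 and 95.9 RPKM and Clec12a at 122 and 74.3 RPKM. Sirpa, the receptor for the don't-eat-me signal CD47, was higher, at 264 and 321 RPKM. Pecam1, the other exception, was at 1.24 and 3.33 RPKM and is also an endothelial marker.

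Of the kinases, 6 of the 7 genes kept were higher, with a median of 0.10, or 0.15 after the correction. Lyn was at 123 and 131 RPKM and Btk at 31.1 and 38.7 RPKM, whereas Fgr was lower, at 144 and 113 RPKM. Of the adaptors and enzymes below Syk, 16 of 25 were higher, with a median of 0.16, or 0.03 after the correction. Pik3cd, the leukocyte PI3-kinase subunit p110 delta, was at 18.3 and 39.7 RPKM, the largest log2 ratio among the 25 genes kept. Lat, which did not pass the filter, was at 0 RPKM with vehicle and at 1.55 RPKM (about 18 reads) with clodronate. Plcg2 was at 40.5 and 62.0 RPKM and Card9, which links Syk to NF-kB, at 37.6 and 53.5 RPKM. Pik3ca was at 10.7 and 5.23 RPKM and Cdc42, a GTPase of actin assembly, at 442 and 326 RPKM.

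The phosphatases and other brakes were higher in 8 of 11 cases, with a median of 0.21, or 0.06 after the correction. Inpp5d, which encodes SHIP1, the phosphatase that Fcgr2b recruits, was at 99.6 and 114 RPKM, and Ptpn6, which encodes SHP-1, at 99.6 and 116 RPKM. Dok2, an adaptor that restrains Ras signaling, was at 106 and 177 RPKM. Of the known regulators of these receptors, 8 of 14 were higher, with a median of 0.13, or 0.01 after the correction. Spi1 was at 208 and 333 RPKM. Ifng, the cytokine that induces Fcgr1, was at 2.75 RPKM (about 38 reads) in the vehicle library and listed at 0 in the clodronate library, and Il10, which also raises Fcgr1 in myeloid cells, was at 17.2 and 42.8 RPKM.

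The other Fc receptors were mostly at low values. Of 12 genes in that list, 4 passed the filter, B2m among them, and 3 of the 4 were lower. Fcrl1, a receptor-like gene of B cells, was at 2.29 RPKM (about 50 reads) and 0.108 RPKM (about 2 reads). Fcrls, an Fc receptor-like gene of myeloid cells, was at 89.9 and 96.7 RPKM and Trim21, a cytosolic IgG receptor, at 5.65 and 3.73 RPKM. Ms4a2, the beta chain of the IgE receptor, and Fcamr were listed at 0 in both libraries, and Fcer1a was at 0 and 0.108 RPKM. None of the 5 soluble ligands and partners of Fc receptors passed the filter.

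Fc gamma receptors are carried by several leukocytes, whose markers, with those of stromal cells, were set beside these values. The counts of markers that passed the filter stand beside 10982 of 22886 for all genes. Markers listed at 0 stand beside 8370 of the 22886 genes listed at 0 in both libraries. Whether a listed 0 means that the RNA was absent was not tested. For B cells, 2 of 7 markers passed the filter, their levels summed to 2.99 RPKM (vehicle) and 2.42 RPKM (clodronate), and Pax5 and Cr2 were listed at 0 in both. For NK cells, 0 of 6 passed, with sums of 0.948 and 0.966 RPKM, and Ncr1 and Klrd1 were listed at 0 in both. These near-equal sums came from different genes. Eomes was at 0.909 RPKM (about 38 reads) and 0, and Klrb1c at 0 and 0.918 RPKM (about 20 reads). For neutrophils, 3 of the 7 markers found passed, with sums of 43.1 and 45.1 RPKM, and S100a9, Retnlg, Ngp and Camp were listed at 0. The 3 kept went opposite ways, S100a8 being at 12.7 and 23.1 RPKM, in the direction of Fcgr1 and Fcgr4, and Csf3r at 26.4 and 19.3 RPKM and Cxcr2 at 4.06 and 2.69 RPKM. The mast cell list had 3 of 6 genes kept, sums of 35.8 and 23.3 RPKM that came mostly from Cpa3, and Mcpt8 and Ms4a2 at 0. All 5 monocyte markers passed, with sums of 145 and 168 RPKM. Among them Ly6c2 was at 13.0 and 23.0 RPKM and Plac8 at 45.4 and 91.8 RPKM, in the direction of Fcgr1 and Fcgr4, whereas Ccr2 was at 48.5 and 37.8 RPKM and Chil3 at 36.4 and 14.8 RPKM. The dendritic cell list had 2 of 6 kept and sums of 5.52 and 4.36 RPKM, and the plasma cell list 1 of 4 and sums of 7.20 and 5.73 RPKM. The T cell list had 0 of the 5 genes found kept and sums of 0.837 and 1.63 RPKM, with Cd3e at 0. Its sums too came from different genes, Cd3d at 0.837 RPKM (about 16 reads) and 0.0789 RPKM (about 1 read), and Lat at 0 and 1.55 RPKM (about 18 reads). The endothelial list had 2 of 5 kept, sums of 2.37 and 7.40 RPKM, Cdh5 at 0.480 RPKM (about 25 reads) and 3.24 RPKM (about 138 reads), and Tek and Emcn at 0. All 6 fibroblast markers passed, with sums of 154 and 75.1 RPKM that came mostly from Dcn and Col3a1. Dcn was at 77.3 and 28.4 RPKM and Col3a1 at 62.1 and 34.4 RPKM. In this list 5 genes were lower and 1 higher, Col1a1, at 2.32 RPKM (about 182 reads) and 5.40 RPKM (about 346 reads). The platelet list, with 2 of 5 kept and Gp9 and Gp6 at 0, summed to 459 and 641 RPKM, most of it Pf4. The part of these cells in the receptor values was not tested.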

How the data were processed

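Sorted cells of LLC tumors were sequenced as polyA RNA, 1 library per condition, and groups were taken from the labels. The authors deposited RPKM per gene locus, 23170 in each table, and no counts. Per the labels, the submitters' processing notes name CASAVA 1.8.2, TopHat2 2.0.9, Bowtie 0.12.9, Cufflinks 2.2.1, Cuffdiff and the build mm9. The paper describes no tumor sequencing and gave no methods for these tables. Symbols of 26 lines read as numbers and were replaced through their RefSeq entry. RPKM were summed per symbol. Log2 ratios were taken of the clodronate over the vehicle value after adding 1 RPKM to each, so changes of low genes are understated. A mean of 1 RPKM or more was required, and 3-fold was the threshold, with 2-fold as an alternative. The genes and lists were chosen with earlier results of these data known, and any gene of these lists could be named, although some of them are not reported here. The nearest gene by level was named by its distance. RPKM depend on the length and isoforms that the authors' software assumed. Length and GC content came from GENCODE M21 transcripts on GRCm38 with the same RefSeq entries, found for 98.7% of the genes kept, and the correction subtracted medians of 10 bins each. Coordinates of mm9 and GRCm38 were never combined. Depth was estimated, after the data had been seen, from the steps of low values with an effective length of the transcript less 200 bases. Intervals are 95% counting intervals of estimated reads, exact for levels and folds and by normal approximation for ratios of sums. Steps were tested on simulated data. Also tried were adding 0.1 RPKM, leaving out the filter, requiring a mean of 5 RPKM, centring, upper-quartile scaling, small RNA loci left out and the highest line of a symbol. Python 3.11.15, numpy 2.4.6, pandas 2.3.3, scipy 1.17.1 and matplotlib 3.10.9 were used.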

Additional observations from a re-analysis of the deposited data

How the results depend on the processing

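No paired analysis was possible because there is 1 library per condition, and no replicate could be left out. None of the 8 genes reached 3-fold under any alternative that kept this threshold, nor 2-fold. Over the alternatives run, the log2 ratio ranged from 0.82 to 0.93 for Fcgr1, from 0.62 to 0.86 for Fcgr4, from 0.62 to 0.79 for Fcgrt, from -0.47 to -0.25 for Tyrobp and from -0.31 to -0.13 for Fcgr3, each on 1 side of 0. Fcgr2b ranged from -0.06 to 0.09. The correction for GC content and length turned Fcer1g from -0.17 to 0.049 and Syk from 0.13 to -0.0042, and moved the log2 difference in the adaptor to IgG receptor ratio from -0.25 to -0.16. The counts over all genes, 314 at least 3-fold higher and 255 lower, became 532 and 480 with a pseudocount of 0.1, 127 and 101 when a mean of 5 RPKM was required, and 763 and 744 at 2-fold. With 1 library per condition, animal, sort and library cannot be told apart from treatment, and the estimated depth, 1.23 times higher in the vehicle library, limits the low genes most.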
